A study of Mus musculus with 12 samples.

Results

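Txnip, Arrdc4 and Arrdc3, which encode alpha-arrestins, were examined together with Mlx, Mlxip and Mlxipl, which encode the transcription factors that read glucose in the cell. These 6 genes were looked up by symbol among the 27321 genes present in both deposited tables (32419 genes in either) because of their place in the glucose response and because of earlier values of these data. They were thus chosen by their levels under the 2 environments, and the comparison between environments is therefore given for them as a description, without a test, and tests are kept for the comparison between genotypes. Standard errors and intervals printed with that description, or with the difference between genotypes in the change, show spread and are not a test. The cells were primary mouse brain endothelial cells (BECs) of C57BL/6 background (C57BL/6J in the study's methods), with the cortistatin gene intact (Cort+/+) or deleted (Cort-/-), and every replicate pooled 3 mice. Cells of either genotype were kept for 24 h in normoxia and normoglycemia at 21% O2 (NX/NG), or for 4 h at 1% O2 without glucose or serum and then for 20 h with oxygen and glucose restored (OGD-R). The RNA was thus taken after 20 h of glucose return, and not at the end of the deprivation. GEO's labels also name a mouse model of ischemic stroke (MCAO) for every sample. The main text of the paper describes the deprivation in culture and no such procedure in the mice. The 10 libraries analysed were 3 Cort+/+ and 2 Cort-/- in each environment.

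Alpha-arrestins are adaptors that bring ubiquitin ligases of the Nedd4 family to proteins of the cell surface. Txnip also binds and inhibits thioredoxin, and with its closest relative Arrdc4 it restrains glucose uptake by removing glucose transporters from the membrane. Transcription of both is driven by Mlx paired with MondoA (the product of Mlxip) or with ChREBP (the product of Mlxipl), which enter the nucleus when glucose 6-phosphate builds up and bind carbohydrate response elements made of a pair of E-box-like sites. Arrdc3, best known as an adaptor for beta-adrenergic receptors, is of the same fold but is not among the classical targets of Mlx.

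The promoters of Txnip and Arrdc4 are shown because they are the members known as targets of the Mlx factors. Both were read from RefSeq (GRCm38.p6), which held promoter entries for all 6 members, as 250 bases before and 50 after the annotated start, in the direction of the gene. Capitals mark matches, on either strand, to the E-box CACGTG, to CCAAT, or to a repeated pair of E-box-like sites written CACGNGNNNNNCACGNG.

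Txnip, chr3:96557707-96558006, plus strand: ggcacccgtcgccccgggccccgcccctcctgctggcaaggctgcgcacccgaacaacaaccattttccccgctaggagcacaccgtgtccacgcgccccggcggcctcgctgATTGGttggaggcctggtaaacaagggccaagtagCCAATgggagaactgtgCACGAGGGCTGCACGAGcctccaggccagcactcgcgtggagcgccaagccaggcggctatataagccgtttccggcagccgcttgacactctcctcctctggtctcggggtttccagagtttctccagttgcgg
Arrdc4, chr7:68749189-68749488, minus strand: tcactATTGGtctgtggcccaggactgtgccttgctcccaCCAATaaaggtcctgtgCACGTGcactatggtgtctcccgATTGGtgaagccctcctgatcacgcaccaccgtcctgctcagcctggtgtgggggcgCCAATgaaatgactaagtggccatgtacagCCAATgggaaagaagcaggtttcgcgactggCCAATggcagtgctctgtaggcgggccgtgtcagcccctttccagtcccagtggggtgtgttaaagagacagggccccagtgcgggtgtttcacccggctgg

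In Txnip the repeated pair began at position -85 from the start and 2 CCAAT boxes stood before it, at -137 and -102. The repeated pair was found in 16 of 32817 promoters of the same length (0.0488%), and its spelling was taken from what is known of Txnip, so Txnip had to hold it. Arrdc4 held an E-box at -193, which 7.15% of all promoters had, and 6 CCAAT boxes, where 0.271% of all promoters held 5 or more. The promoter of Mlx had an E-box at -40 and 2 CCAAT boxes, and that of Mlxip had 2 CCAAT boxes. Of the 2 promoters listed for Mlxipl, 1 had an E-box, at -98. None of the 3 promoters listed for Arrdc3 held an E-box or the repeated pair. No match to the facing arrangement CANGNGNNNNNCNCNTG, present in 0.558% of all promoters, was found in any promoter of the 6 genes. The matches describe the letters of these windows and do not show binding.

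Levels are given as RPKM, reads scaled to gene length and to library size, so that genes of different length can be compared. The deposited tables of the 2 environments were normalized separately. Values set across environments were therefore brought to a common scale by a trimmed mean of M-values (TMM) over the genes in both tables, which placed NX/NG libraries at 102% to 103% and OGD-R libraries at 97.4% to 97.5% of their deposited values. The environment coincides with the table, and a difference between tables cannot be told apart from one between environments. In a bulk culture, less RNA per cell and fewer cells of a type cannot be told apart either. Over the 10 libraries Txnip had the highest mean level of the 6 genes (34.1 RPKM), followed by Arrdc4 (17.5), Mlx (7.05), Mlxip (4.63) and Arrdc3 (3.10). Every library had more Txnip than Arrdc4 on this scale, and the ranges of Mlxip and Arrdc3 overlapped.

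Txnip was lower after OGD-R than under NX/NG in both genotypes. In Cort+/+ BECs under NX/NG it stood at 38.7, 42.5 and 41.4 RPKM in replicates 1, 2 and 3 on the common scale, and after OGD-R at 24.03, 25.1 and 29.2 RPKM. In Cort-/- BECs it stood at 41.0 and 45.1 RPKM in replicates 1 and 2 under NX/NG, and at 26.7 and 27.0 RPKM in replicates 1 and 3 after OGD-R. All 5 OGD-R libraries lay below all 5 NX/NG libraries, with no overlap in either genotype. The group means were 40.8 ± 1.96 (SD, n = 3) against 26.1 ± 2.72 (n = 3) in Cort+/+ and 43.0 ± 2.89 (n = 2) against 26.8 ± 0.244 (n = 2) in Cort-/-. These are differences of -36.1% and -37.7%, or on the log2(RPKM + 0.1) scale of -0.65 (SE 0.088) and -0.68 (SE 0.089). The difference between the genotypes in this change was -0.03 (SE 0.13, 95% interval -0.33 to 0.27). The values came from 893 to 1738 reads per library, for which the exact Poisson 95% interval, covering counting error only, is at most -6.45% to 6.78% of the count. Without replicate 1 of the Cort+/+ OGD-R group, a library with little ribosomal RNA, the Cort+/+ difference was -0.59.

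**Figure D1:**
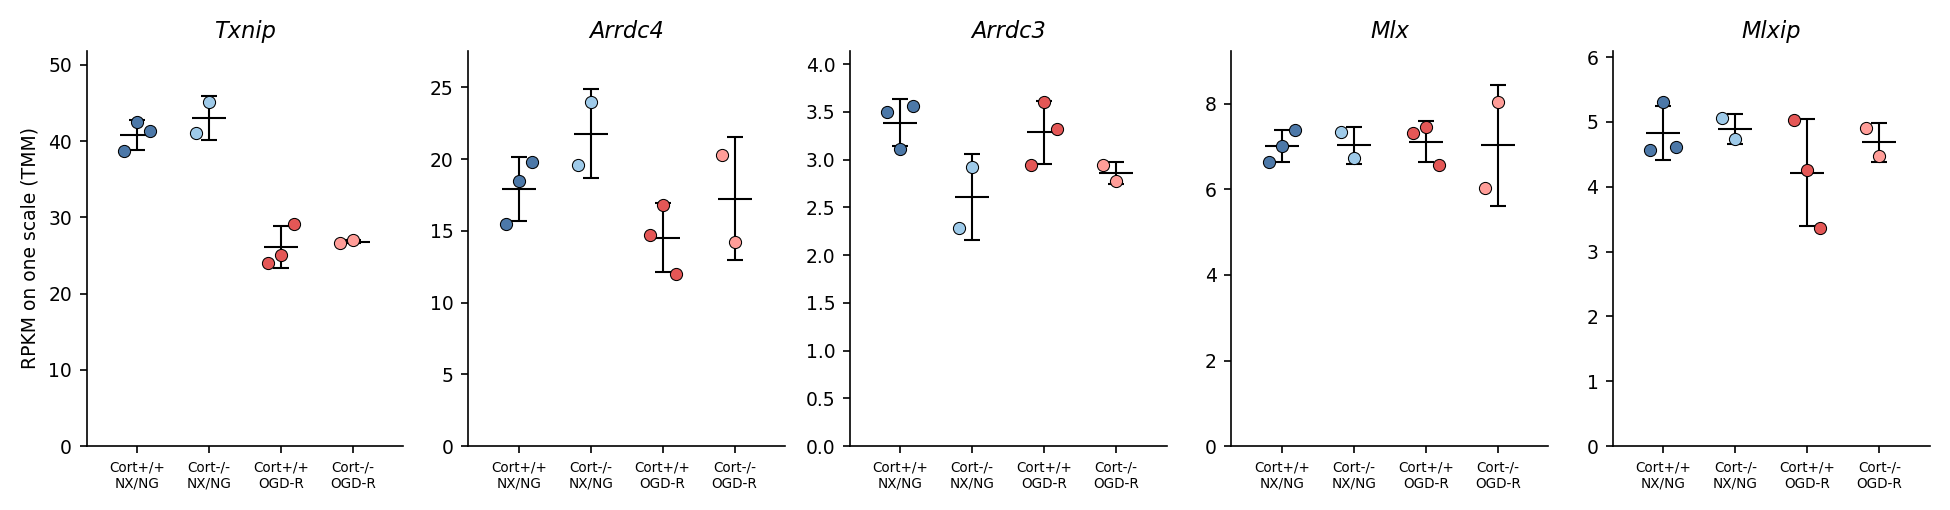
Level of each gene in each library, in RPKM on the common TMM scale (each y axis starts at 0 and has its own range), with points for the libraries (3 Cort+/+ and 2 Cort-/- per environment), horizontal lines for the group mean and bars for ± SD. Txnip lies between 38.7 and 45.1 RPKM under NX/NG and between 24.03 and 29.2 RPKM after OGD-R; the groups of the other genes lie closer together or overlap.

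For comparison, of 13804 genes averaging 1 RPKM or more, 5.18% were lower after OGD-R without overlap in the 3 against 3 Cort+/+ libraries. The share was 18.1% (of 13730) in the 2 against 2 Cort-/- libraries and 2.49% (of 13788) in both genotypes at once. Of the 5 members above the read floor, Txnip met this in both genotypes and the other 4 in neither. The members were chosen with these values known, so the shares describe Txnip and do not test it. The middle 90% of such genes lay between -0.38 and 0.31 in Cort+/+ and between -0.41 and 0.42 in Cort-/- on the log2 scale, with medians of 0.01 and -0.01. The median over the 5 members was -0.21 and -0.06.

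The Txnip locus (GRCm38, chromosome 3, 96557957 to 96561883, plus strand) shares 606 exonic bases with Gm15441, a gene annotated as antisense on the minus strand. These are 19.4% of the exonic bases of Txnip and 36.2% of those of Gm15441. Gm15441 had 266 to 575 reads per library, and its read count was between 0.298 and 0.338 of that of Txnip in every library. Its level was lower in the same libraries, with means of 25.2 ± 1.43 (SD, n = 3) and 25.7 ± 2.00 (n = 2) RPKM under NX/NG and 15.2 ± 1.83 (n = 3) and 16.1 ± 0.642 (n = 2) RPKM after OGD-R, in Cort+/+ and Cort-/- in turn. Of 13788 genes it had the pattern most like that of Txnip over the 10 libraries (Pearson r = 0.994). Whether the authors counted reads by strand is not given in the sources used here, so reads of the shared bases cannot be told apart and the values of Gm15441 are not an independent measurement. The same holds for Mlx (chromosome 11, 101087277 to 101092207, plus strand), which shares 385 exonic bases with Psmc3ip on the other strand (19.3% of the bases of Mlx; r = 0.924). Mlxip (chromosome 5, 123394798 to 123457932, plus strand) shares 267 exonic bases (3.21%) with the antisense gene Gm15747 (r = 0.945), which had at most 6 reads. Arrdc4 (chromosome 7, 68736995 to 68749241, minus strand) and Arrdc3 (chromosome 13, 80883384 to 80896042, plus strand) share no exonic base with another gene of that annotation (GENCODE vM21).

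**Figure D2:**
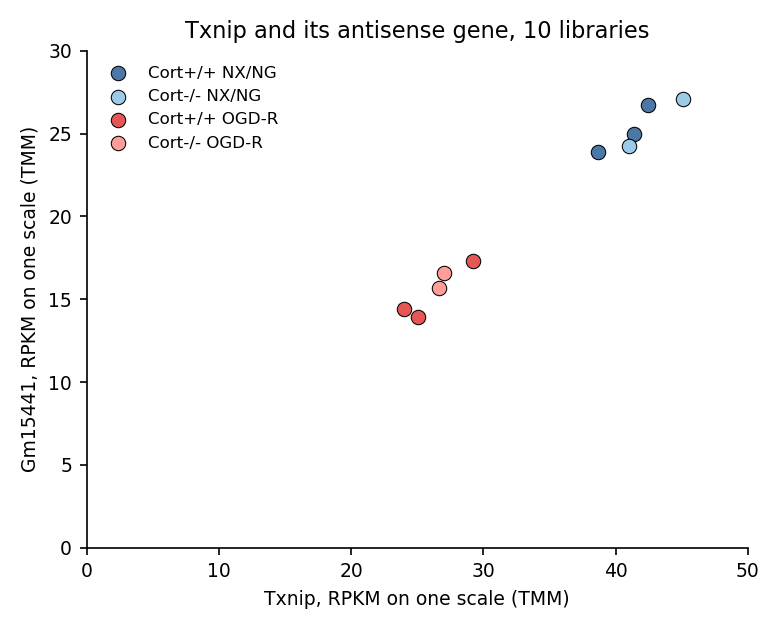
Level of Gm15441 (y axis) against that of Txnip (x axis), both in RPKM on the common TMM scale, with 1 point for each of the 10 libraries coloured by group. The 5 OGD-R libraries lie at the lower left and the 5 NX/NG libraries at the upper right, with a ratio of read counts of Gm15441 to Txnip between 0.298 and 0.338.

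Arrdc4, with 595 to 1194 reads per library, differed less between environments, and its groups overlapped. In Cort+/+ BECs it stood at 15.5, 18.4 and 19.8 RPKM under NX/NG (replicates 1, 2 and 3) and at 14.7, 16.8 and 12.0 RPKM after OGD-R. In Cort-/- BECs it stood at 19.6 and 23.95 RPKM (replicates 1 and 2) under NX/NG and at 20.3 and 14.2 RPKM (replicates 1 and 3) after OGD-R. The highest OGD-R library of each genotype lay inside the range of its NX/NG group. The differences in mean level were -19.0% and -20.8%, or -0.31 (SE 0.15) and -0.35 (SE 0.22) on the log2 scale. They leaned on single libraries: without Cort+/+ OGD-R replicate 3 the first was -0.18, and without Cort-/- OGD-R replicate 3 the second was -0.10. The change differed between the genotypes by -0.04 (SE 0.27).

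Arrdc3, with 172 to 262 reads per library, differed little between environments, at 3.49, 3.11 and 3.56 RPKM under NX/NG and 2.94, 3.60 and 3.32 RPKM after OGD-R in Cort+/+ (replicates 1, 2 and 3). In Cort-/- it stood at 2.29 and 2.92 RPKM under NX/NG (replicates 1 and 2) and at 2.94 and 2.78 RPKM after OGD-R (replicates 1 and 3). Its groups overlapped in both genotypes, and the log2 differences between environments were -0.04 (SE 0.12) in Cort+/+ and 0.14 (SE 0.18) in Cort-/-. Their signs turned to 0.03 without Cort+/+ OGD-R replicate 1 and to -0.03 without Cort-/- NX/NG replicate 1.

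Among the transcription factors, Mlx, the shared partner, stood near 7 RPKM in all groups. Its means were 7.01 ± 0.371 (SD, n = 3) and 7.11 ± 0.479 (n = 3) RPKM in Cort+/+ before and after OGD-R, and 7.03 ± 0.426 (n = 2) and 7.03 ± 1.42 (n = 2) RPKM in Cort-/-. Its log2 difference between environments was 0.02 (SE 0.082) in Cort+/+ and -0.01 (SE 0.17) in Cort-/-, with 95% intervals of -0.18 to 0.22 and -0.49 to 0.46. With a library left out these values took either sign, from -0.02 to 0.07 and from -0.22 to 0.19. Mlxip, which encodes MondoA, had 4.83 ± 0.411 (n = 3) and 4.22 ± 0.830 (n = 3) RPKM in Cort+/+ and 4.89 ± 0.234 (n = 2) and 4.68 ± 0.305 (n = 2) RPKM in Cort-/-, again in the order NX/NG and OGD-R. The lowest value of Mlxip, 3.37 RPKM, belonged to Cort+/+ OGD-R replicate 3, which also had the lowest Arrdc4. Its log2 differences were -0.21 (SE 0.16) and -0.06 (SE 0.11), and the groups overlapped. The first was -0.06 without Cort+/+ OGD-R replicate 3 and -0.34 without replicate 1 of that group, and the second was 0.00 without Cort-/- OGD-R replicate 3. Mlxipl, which encodes ChREBP, had 1 read in Cort-/- NX/NG replicate 1, Cort+/+ OGD-R replicate 2 and Cort-/- OGD-R replicate 3, and no read in the other libraries. This is at or under the floor of 3 reads in every library, so no fold was computed, and at this depth no level of Mlxipl could be measured.

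None of the 5 measurable genes passed the test between genotypes, in which the adjusted p of limma's moderated test had to be at most 0.05 over all genes of a table. Over all genes measured, 0 of 29965 passed under NX/NG and 0 of 29775 after OGD-R (0% in both), with unadjusted p under 0.05 for 2513 (8.39%) and 1019 (3.42%), and limma-voom on recovered reads called 124 and 5. The study, by its own pipeline, reported genes at an adjusted p of 0.05 between genotypes in both environments. It also reported such genes between environments in both genotypes. Its counts were higher than those here in each comparison, and the reason was not tested. The mean Txnip level on the common scale was 5.42% higher in Cort-/- under NX/NG. On the deposited values, which were tested, the log2 difference there was 0.07 (SE 0.069, 95% interval -0.11 to 0.25, limma adjusted p = 0.784). After OGD-R the log2 difference was 0.04 (SE 0.11, interval -0.23 to 0.32, limma adjusted p = 0.978), and it was -0.01 without Cort+/+ OGD-R replicate 1. The Arrdc4 level had a higher mean in Cort-/- in both environments, by 0.27 (SE 0.14, interval -0.09 to 0.63, limma adjusted p = 0.681) and 0.24 (SE 0.21, interval -0.28 to 0.76, limma adjusted p = 0.978). The first difference was 0.13 without Cort-/- NX/NG replicate 2 and 0.42 without Cort-/- NX/NG replicate 1. The second difference was -0.02 without Cort-/- OGD-R replicate 1, and libraries of the genotypes overlapped in both environments.

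Arrdc3 was the member in which the genotypes did not overlap under NX/NG. All 3 Cort+/+ libraries were above both Cort-/- libraries, and the log2 difference was -0.38 (SE 0.14, interval -0.74 to -0.02), with an unadjusted p of 0.042 and a limma adjusted p = 0.572. It was -0.21 without Cort-/- replicate 1 and -0.55 without Cort-/- replicate 2. Of all genes averaging 1 RPKM or more, 16.6% were lower in Cort-/- without overlap under NX/NG. The summed deposited levels of 5 fibroblast markers, mainly Col1a1 and Col1a2, were also lower in Cort-/- without overlap there. The sums were 62.8 to 93.6 RPKM against 157 to 224 RPKM. Of these 5, Pdgfra went the other way without overlap, at 0.485 and 0.706 RPKM in Cort-/- against 0.319 to 0.366 RPKM, and Dcn and Lum overlapped. Of the 7 pericyte and smooth muscle markers, Cspg4, Pdgfrb and Rgs5 were lower in Cort-/- under NX/NG without overlap. Myh11 went the other way (0.29 on the log2 scale) with overlap, Vtn and Acta2 overlapped, and Kcnj8 was near 0. The part of these markers in the value of Arrdc3 was not tested. After OGD-R the difference was -0.19 (SE 0.14, interval -0.54 to 0.17, limma adjusted p = 0.978), and the lowest Cort+/+ and the highest Cort-/- library had the same level to 3 digits (2.94 RPKM), where 8.23% of genes were lower in Cort-/- without overlap. Mlx differed between genotypes by 0.00 (SE 0.078, interval -0.20 to 0.20) under NX/NG and by -0.03 (SE 0.15, interval -0.41 to 0.35) after OGD-R, with limma adjusted p = 0.988 and 0.983. For Mlxip the differences were 0.02 (SE 0.098, interval -0.24 to 0.27) and 0.16 (SE 0.19, interval -0.31 to 0.64), with limma adjusted p = 0.955 and 0.978. The second was 0.02 without Cort+/+ OGD-R replicate 3 and 0.30 without replicate 1 of that group.

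**Figure D3:**
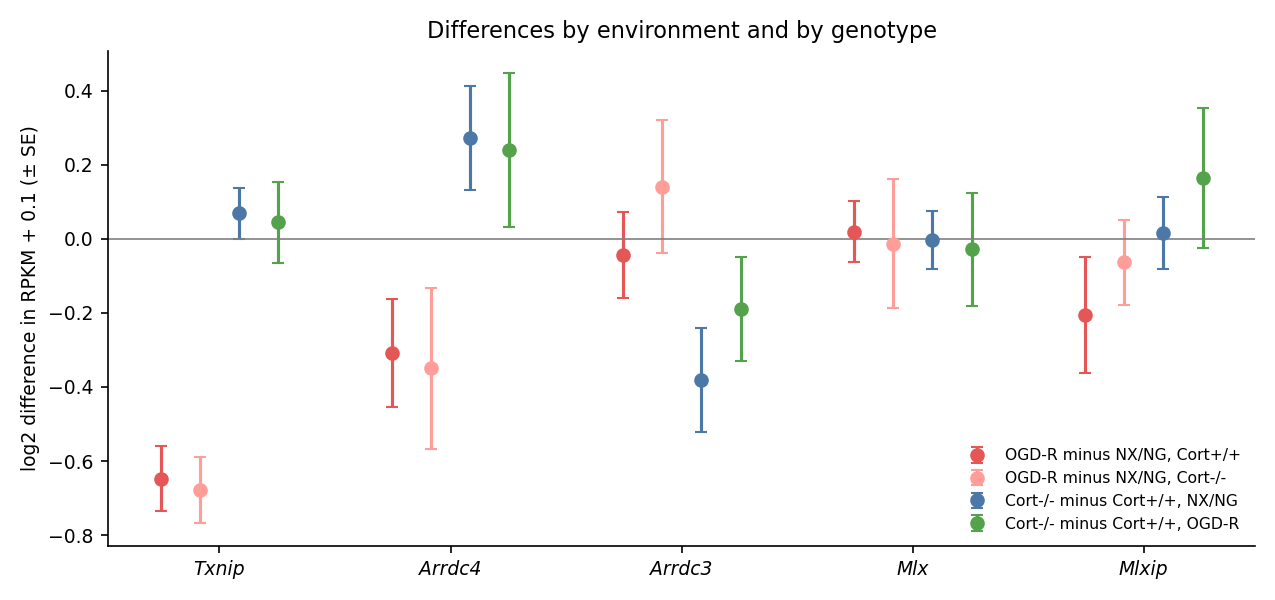
Log2 difference in RPKM + 0.1 of 5 genes (y axis, points with ± SE) between environments in each genotype and between genotypes in each environment. The points of Txnip between environments lie at -0.65 and -0.68, and its points between genotypes lie at 0.07 and 0.04.

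The other genes of the pathway were followed in 9 lists of 87 genes, of which 82 were in both tables, 76 were above the read floor and 67 averaged 1 RPKM or more. None passed the test in any comparison. For the change between environments this is to be read beside 9 of 27075 genes (0.0332%) that passed in Cort+/+ and 0 of 26523 (0%) in Cort-/-, where 1485 (5.48%) and 1082 (4.08%) genes had an unadjusted p under 0.05 and limma-voom called 1 and 0. Among the 67 genes, an unadjusted p under 0.05 was found between environments for 3 higher and 4 lower genes in Cort+/+ and for 3 higher and 0 lower genes in Cort-/-. Between genotypes it was found for 4 higher and 7 lower genes under NX/NG (16.4% of the 67) and for none after OGD-R (0%). In fits limited to genes of at least 1 RPKM in 2 libraries, it was found for 1873 of 14220 genes under NX/NG and 533 of 14325 after OGD-R. In the fit of the difference between genotypes in the change, 3 of 27321 genes passed (0.011%) and 780 (2.85%) had an unadjusted p under 0.05, of which 1 higher and 1 lower gene were among the 67.

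Of the other targets of the carbohydrate response none passed the test between environments. The median log2 difference of the 13 genes measured was 0.07 in Cort+/+ and 0.03 in Cort-/-, between -0.21 and 0.34 and between -0.12 and 0.60. Hk2, a hexokinase, was the highest of them in both, at 0.34 (SE 0.16, limma adjusted p = 0.894) and 0.60 (SE 0.16, limma adjusted p = 0.922), with mean levels of 2.56 and 3.26 RPKM in Cort+/+ and 1.68 and 2.61 RPKM in Cort-/- under NX/NG and OGD-R. Me1, malic enzyme, was lower after OGD-R without overlap in both genotypes, as were 2.49% of genes averaging 1 RPKM or more. Me1 stood at -0.21 (SE 0.095, limma adjusted p = 0.882) and -0.12 (SE 0.092, limma adjusted p = 0.922), the lowest value of the list in each. Acly, ATP citrate lyase, stood at -0.03 and 0.03. Rgs16, a regulator of G protein signalling, stood at 0.12 and -0.09.

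**Figure D4:**
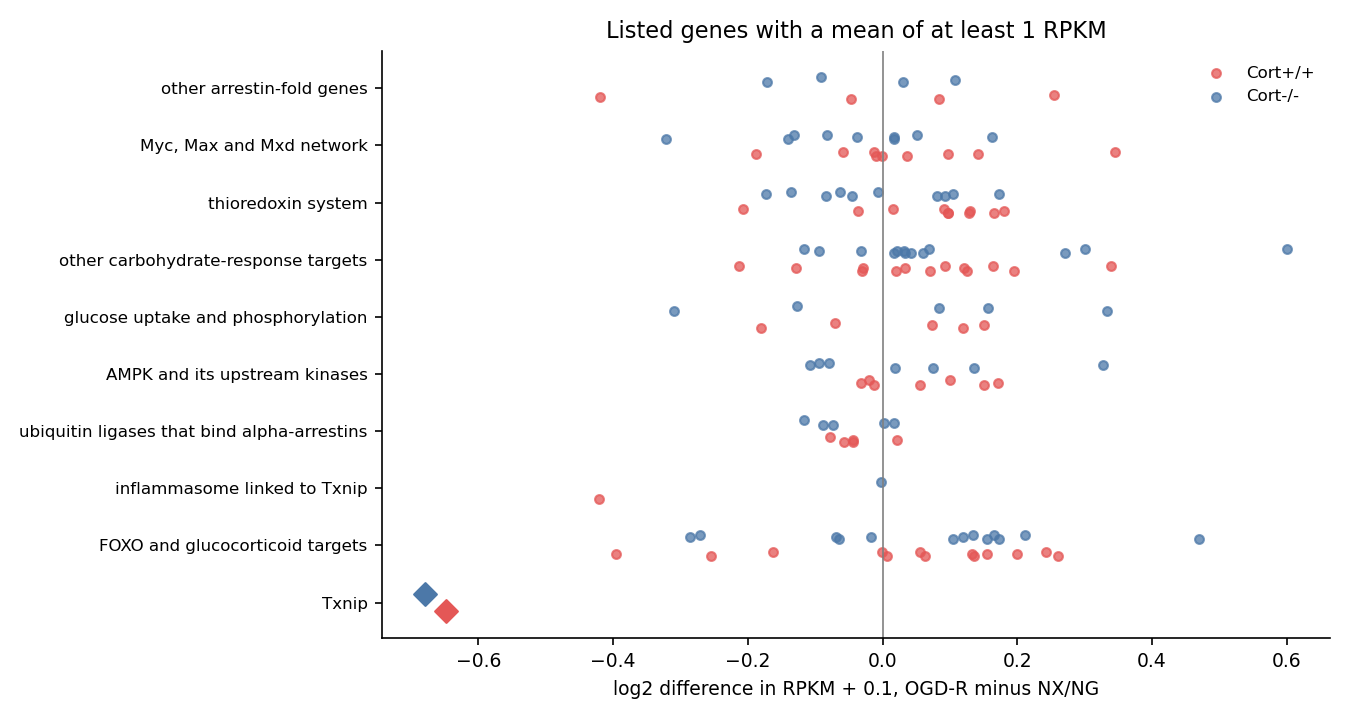
Log2 difference in RPKM + 0.1 between OGD-R and NX/NG (x axis) of the listed genes that average 1 RPKM or more, 1 point per gene and genotype, by list (y axis), with Txnip as diamonds at the bottom. The cell type markers are not shown. Among them Myh11 lay further below 0 than Txnip in both genotypes (-1.05 in Cort+/+ and -1.26 in Cort-/-). No gene of the 9 lists shown lies as far below 0 as Txnip, at -0.65 in Cort+/+ and -0.68 in Cort-/-. Txnip was chosen with these values known, so its place in the plot is a description and not a test. Hk2 is the point farthest above 0 in Cort-/- (0.60).

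In the machinery on which Txnip acts, the thioredoxin list had a median log2 difference of 0.10 in Cort+/+ and -0.03 in Cort-/-. Txn1, the cytosolic thioredoxin that Txnip binds, had 134 and 143 RPKM in Cort+/+ and 131 and 132 RPKM in Cort-/- under NX/NG and OGD-R. Slc2a1 encodes the glucose transporter GLUT1 of the blood-brain barrier. Its level was 36.9 and 32.2 RPKM in Cort+/+ and 46.5 and 37.5 RPKM in Cort-/-, differences of -0.18 (SE 0.14, limma adjusted p = 0.930) and -0.31 (SE 0.12, limma adjusted p = 0.922). G6pdx, the entry enzyme of the pentose phosphate pathway, stood at 0.12 (SE 0.060) and 0.33 (SE 0.26). Its 2 Cort-/- OGD-R libraries lay far apart (27.5 ± 9.16 RPKM, SD, n = 2). Gpi1, the isomerase of glucose 6-phosphate, stood at 0.07 and 0.08. Of the AMPK subunits, Prkag1 stood at 0.17 (SE 0.092) and 0.33 (SE 0.10) and the catalytic Prkaa1 at -0.03 and -0.11. Stk11, which encodes the kinase LKB1 upstream of AMPK, stood at 0.15 and 0.02.

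The ubiquitin ligases that bind alpha-arrestins were the list with the narrowest spread, from -0.08 to 0.02 in Cort+/+ and from -0.12 to 0.02 in Cort-/-, with Nedd4 at 166 and 161 RPKM in Cort+/+. Of the inflammasome genes linked to Txnip, Il18 alone averaged 1 RPKM or more, from only 23 to 36 reads per library. Its log2 difference was -0.42 (SE 0.16, limma adjusted p = 0.881) in Cort+/+ and 0.00 (SE 0.18) in Cort-/-. Nlrp3, the sensor itself, had a mean of 0.015 RPKM over the libraries and was chosen for mention after its value was seen. In the network of Myc, Max and Mxd proteins, to which Mlx belongs, Max stood at -0.01 and -0.14 and Mycl at 0.35 and -0.13. Of the genes controlled by FOXO factors or glucocorticoids, which also bear on Txnip, Sesn3 stood at -0.40 (SE 0.11) and -0.29 (SE 0.13) and Sgk1 at 0.24 (SE 0.079) and 0.17 (SE 0.088), with limma adjusted p from 0.861 to 0.922. Sesn3 was lower after OGD-R without overlap in both genotypes, as were 2.49% of genes averaging 1 RPKM or more, and Sgk1 was higher without overlap in both.

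The other arrestin-fold genes had no common direction, with a median of 0.02 in Cort+/+ and -0.03 in Cort-/-. Arrb2, a beta-arrestin, stood at -0.42 (SE 0.13, limma adjusted p = 0.881) in Cort+/+ and 0.11 (SE 0.24) in Cort-/-. Arrb1, the other beta-arrestin, stood at -0.05 and -0.17, and Arrdc1, an alpha-arrestin of the plasma membrane, at 0.25 (SE 0.097) and -0.09 (SE 0.088). The environments did not overlap for Arrdc1 in either genotype, as was so, in either direction, for 12.9% of all genes averaging 1 RPKM or more in Cort+/+ and 34.2% in Cort-/-.

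Beside Gm15441, the genes most like Txnip over the 10 libraries were Ahcyl1 (r = 0.944), Srp72 (0.942), Atp6v1a (0.935) and Ppm1k (0.935). The first regulates calcium release, the second is part of the signal recognition particle, the third is a subunit of the vacuolar proton pump and the fourth is a mitochondrial phosphatase. Their mean levels in Cort+/+ under NX/NG and OGD-R were 21.1 and 18.9, 31.9 and 29.7, 33.8 and 29.4, and 1.46 and 0.998 RPKM. Arrdc4 ranked 1134 of 13788 (r = 0.581), Mlxip 3630 (r = 0.309) and Arrdc3 7924 (r = -0.106). Most like Arrdc4 were Asb4 (r = 0.964), P2ry10b (0.957), Ctnnb1 (0.945), Mest (0.944) and Diaph1 (0.930). These values describe the order of 10 points that share their tables and groups.

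Some features of the libraries bear on these values. Every library had between 12386048 and 12390428 reads on genes, recovered from the steps of the RPKM values. The 18S ribosomal RNA gene Rn18s-rs5 took 7.64% to 15.8% of these reads in 8 libraries and 0.0951% and 0.0775% in Cort-/- OGD-R replicate 3 and Cort+/+ OGD-R replicate 1. Both libraries are of the OGD-R groups. In a fit with a term for these libraries the difference of Txnip between environments was -0.62 in Cort+/+ and -0.63 in Cort-/-, and those of the other 4 measurable members lay between -0.26 and 0.22. Cort, the deleted gene, had 0 reads in all 4 Cort-/- libraries and 0 to 2 reads in the Cort+/+ libraries, so that the genotype labels could hardly be checked at this depth. Endothelial markers were high throughout (779 to 1228 RPKM summed over 7 genes), though Slco1c1, a gene of brain endothelium, was near 0, and markers of astrocytes, neurons and oligodendrocytes each summed to less than 1 RPKM and those of microglia and macrophages to 1.32 to 2.06 RPKM. The 5 fibroblast markers, mainly Col1a1 and Col1a2, summed to 157 to 224 RPKM in Cort+/+ under NX/NG and 169 to 279 after OGD-R. In Cort-/- they summed to 62.8 to 93.6 and 161 to 206 RPKM in turn, on the deposited scale of each table, thus moving with the environment in Cort-/- and with the genotype under NX/NG. The 7 pericyte and smooth muscle markers, mainly Acta2, summed to 646 to 1103 RPKM over all groups, with overlapping ranges between environments in each genotype. Its pericyte genes did not follow Acta2. Cspg4 had 0.679 and 1.36 RPKM in Cort-/- under NX/NG against 3.55 to 4.13 RPKM in Cort+/+, and 3.69 and 4.72 RPKM in Cort-/- after OGD-R. Pdgfrb had 5.17 and 7.66 RPKM against 12.1 to 13.5 RPKM, and 9.98 and 11.8 RPKM in Cort-/- after OGD-R. Both were thus lower in Cort-/- under NX/NG (-1.91 and -1.001 on the log2 scale, limma adjusted p = 0.212 and 0.252) and higher in Cort-/- after OGD-R than before (1.93 and 0.70, limma adjusted p = 0.754 and 0.922), without overlap. Kcnj8 was near 0, Vtn had at most 0.574 RPKM and Rgs5 had 0.983 to 3.53 RPKM. Myh11, a smooth muscle marker of the list, was lower after OGD-R without overlap in both genotypes, as were 2.49% of genes averaging 1 RPKM or more. Its log2 difference was -1.05 (SE 0.28, limma adjusted p = 0.861) in Cort+/+ and -1.26 (SE 0.30, limma adjusted p = 0.922) in Cort-/-. On the common scale its means were 1.44 and 0.667 RPKM in Cort+/+ and 1.82 and 0.687 RPKM in Cort-/- under NX/NG and OGD-R. Epithelial markers were highest in Cort+/+ NX/NG replicate 2 (57.6 RPKM) and Cort-/- OGD-R replicate 1 (40.7 RPKM), against 3.02 to 16.1 RPKM elsewhere. The part of these markers in the members' values was not tested.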

How the data were processed

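RNA of primary BECs was sequenced from poly(A)-selected, strand-marking libraries; the labels and the published methods name different kits. Of 12 samples listed, 10 have columns and were analysed; from the Cort-/- samples, replicate 3 of NX/NG and replicate 2 of OGD-R were not used here. The deposited values are RPKM per library and gene, which the authors made with their reanalyzerGSE pipeline in a table per environment, and the submitters' processing notes name edgeR; aligner, genome build and use of strand are not given in the sources used here. Gene lengths equal the exonic lengths of GENCODE vM21 (GRCm38) for 98.0% of 26035 genes matched by symbol, and the positions printed come from that annotation. Multiplying RPKM by length and dividing by a step fitted in each library gave whole reads for 100% of values within 0.05 reads, 12386048 to 12390428 per library. These near-equal totals are lower than the mean number of paired-end reads that the study reports, so they need not be the sequencing depth. The reason for this was not tested. The 10 category columns and the authors' own fold changes and p-values, held in separate tables, were not used.

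Values were tested as log2(RPKM + 0.1) with limma 3.58.1 (R 4.3.3; empirical Bayes with trend, two-sided) and Benjamini-Hochberg adjustment over all genes of a comparison, with a call at an adjusted p of at most 0.05. Genotypes were compared on deposited values within a table; environments, and the difference between genotypes in the change, were compared on values scaled jointly by TMM over 27321 genes. limma-voom on recovered reads, other pseudocounts, filters and scalings, a replicate block, a term for low ribosomal RNA and leaving out libraries were alternatives; leaving out both libraries low in ribosomal RNA was added after seeing the data, and so was the choice of motifs. Tests were tested on simulated data. As the replicates are pools of 3 mice, p-values measure the spread between pools.

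The members and lists were chosen with earlier results of these data known. Besides the members, the genes named are listed genes that passed the test or, per list, the 2 with the highest mean and the 2 with the lowest unadjusted p between environments in Cort+/+, together with Cort, Rn18s-rs5 and the 5 genes with the highest Pearson r to Txnip and to Arrdc4 among genes averaging 1 RPKM or more; marker and overlapping genes are named where values turn on them. Promoters are from RefSeq; protein sequences were not used here. Genes of a list that were not in both tables were not analysed here.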

Additional observations from a re-analysis of the deposited data

Results flagged for a closer look

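Arrdc1, an alpha-arrestin, was higher after OGD-R in Cort+/+ BECs and lower in Cort-/- BECs, with no overlap between environments in either genotype. Its means were 6.15 ± 0.385 (SD, n = 3) and 7.36 ± 0.738 (n = 3) RPKM in Cort+/+ and 8.20 ± 0.274 (n = 2) and 7.69 ± 0.108 (n = 2) RPKM in Cort-/- under NX/NG and OGD-R. In the limma fit of the difference between the genotypes in this change, the log2 value was -0.35 (SE 0.14), with an unadjusted p of 0.032 and a limma adjusted p = 1.000 over all genes, so the difference did not pass. Arrdc1 was flagged for this opposite pattern, so its unadjusted p belongs to a gene picked on the same values. Between genotypes it was higher in Cort-/- by 0.40 under NX/NG (SE 0.077, limma adjusted p = 0.282) and by 0.07 after OGD-R (SE 0.11). Genes without overlap between environments, in either direction, made up 12.9% of genes averaging 1 RPKM or more in Cort+/+ and 34.2% in Cort-/-. The share with opposite directions in the 2 genotypes was not computed.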

How the results depend on the processing

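The log2 difference of Txnip between environments was negative in all settings run, from -0.73 to -0.58 in Cort+/+ and from -0.75 to -0.59 in Cort-/-. With library totals in place of TMM it was -0.58 in Cort+/+. No member passed the test between genotypes in any setting. Counts of genes passing over the whole tables depended on the setting, and the cause was not tested. Between genotypes under NX/NG (0 genes) they were 20 with a pseudocount of 1, 124 with limma-voom, 4 with all groups in one fit and 0 to 683 with a library left out, the 543 and 683 being those without Cort-/- replicate 1 and 2, where a lone library is assumed to vary like the others. After OGD-R (0 genes) they were 5 with limma-voom, 7 with all groups in one fit, 2 with a term for low ribosomal RNA and 0 to 710 with a library left out, 710 and 626 being those without Cort-/- replicate 1 and 3. Between environments in Cort+/+ (9 genes) they were 5 with a pseudocount of 1, 1 with limma-voom, 2 with the ribosomal term, and 0 with a filter of at least 1 RPKM in 2 libraries, all groups in one fit or any library left out. For the difference between genotypes in the change (3 genes) they were 0 with a pseudocount of 1, that filter, limma-voom, the ribosomal term or without both libraries low in ribosomal RNA, and 0 to 8 with a library left out.

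Values near 0 changed sign. Mlx under NX/NG became 0.0014 with quantile normalization, 0.0031 with all groups in one fit and 0.033 with a replicate block, and spanned -0.065 to 0.059 with a library left out. Mlxip under NX/NG became -0.015 with the block and spanned -0.033 to 0.085. After OGD-R, Txnip became -0.022 without both libraries low in ribosomal RNA and spanned -0.012 to 0.127 with a library left out, Arrdc4 spanned -0.015 to 0.493, and Mlx became 0.0064 with the block and spanned -0.234 to 0.176.

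Deviations from the group means of same-numbered replicates had correlations from -0.531 to 0.186. Between environments in Cort+/+ they were -0.059, -0.074 and 0.186. In a group of 2 libraries the 2 deviations mirror each other. These values therefore cannot tell whether same-numbered replicates came from a shared pool. With a replicate block, 0 genes passed between environments in Cort+/+ and 0 for the difference between genotypes in the change, and the Cort+/+ difference of Txnip was -0.65. No paired analysis was possible because the Cort-/- groups share only replicate 1, for the comparison of environments in Cort-/-. Depth limited Mlxipl and Cort.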
